A study of Arabidopsis thaliana with 6 samples.

Results

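The cell wall integrity receptor kinases followed here are 9 genes of *Arabidopsis thaliana*, taken by locus from a table of leaf mRNA counts for 33602 genes: the wall-associated kinases *WAK1* (AT1G21250), *WAK2* (AT1G21270), *WAK3* (AT1G21240), *WAK4* (AT1G21210) and *WAK5* (AT1G21230), the malectin-domain kinases *FERONIA* (AT3G51550), *THESEUS1* (AT5G54380) and *HERCULES1* (AT3G46290), and the leucine-rich repeat kinase *MIK2* (AT4G08850). The mutant *rse1-1* was compared with its wild type (WT) L*er*, with 3 libraries of each genotype and no treatment. The *rse1-1* allele came from a chemical (EMS) mutagenesis in the L*er* background and carries a premature stop in *RSE1* (AT5G22070), a glycosyltransferase-like gene of the GT14-like family, and its rosette leaves yellow early. All plants were grown on soil under long days, and the third and the fourth leaves were taken before yellowing was visible. A single mutant allele was sequenced, and a complemented line or a second allele was not analysed here. A gene with a mean under 10 counts over the 6 libraries was treated as not measured, which left 7 of the 9 receptor kinases.

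Plant cells monitor their walls with kinases that span the plasma membrane. WAKs bind pectin and the oligogalacturonides released from it. FERONIA, THESEUS1 and HERCULES1 belong to the CrRLK1L family, whose malectin-like domains face the wall and which bind small secreted RALF peptides, while MIK2 takes part in the response to cellulose synthesis inhibition and is the receptor of the SCOOP peptides of the Brassicaceae. In leaves, these kinases are known from both growth control and immunity, and *WAK1* is known to be induced by salicylic acid and by pathogens.

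The 5 *WAK* genes stand in a tandem cluster on chromosome 1, within 24.78 kb and all on the plus strand, in the order *WAK4*, *WAK5*, *WAK3*, *WAK1* and *WAK2*. In the TAIR10.1 annotation *WAK1* lies at chr1:7439171-7442113, *WAK2* at chr1:7444749-7448483, *WAK3* at chr1:7434235-7436830, *WAK4* at chr1:7423704-7427041 and *WAK5* at chr1:7429895-7432477. Their coding regions were 77.8% to 85.1% identical over the aligned bases, with *WAK1* and *WAK3* the most alike pair. The CrRLK1L genes lie apart from each other, *FERONIA* at chr3:19117584-19120949 and *THESEUS1* at chr5:22077040-22080341 on the minus strand, and *HERCULES1* at chr3:17012500-17015885 on the plus strand. Their coding regions were 55.4% to 58.0% identical. *MIK2* lies at chr4:5636479-5640952 on the minus strand.

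Since *WAK1*, *WAK2* and *WAK3* are neighbours that differed widely in their change, the 250 bases before their annotated starts are given, read from TAIR10.1 on the plus strand. They lie at chr1:7438921-7439170 for *WAK1*, chr1:7444499-7444748 for *WAK2* and chr1:7433985-7434234 for *WAK3*. Capitals mark the W-box core TTGAC, the motif that WRKY transcription factors bind, on either strand (GTCAA where it reads on the minus strand).
WAK1: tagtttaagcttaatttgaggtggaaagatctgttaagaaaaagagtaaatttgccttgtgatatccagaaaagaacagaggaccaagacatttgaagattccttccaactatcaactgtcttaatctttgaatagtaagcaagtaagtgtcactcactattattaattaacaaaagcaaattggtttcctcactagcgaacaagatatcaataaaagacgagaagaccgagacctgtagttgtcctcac
WAK2: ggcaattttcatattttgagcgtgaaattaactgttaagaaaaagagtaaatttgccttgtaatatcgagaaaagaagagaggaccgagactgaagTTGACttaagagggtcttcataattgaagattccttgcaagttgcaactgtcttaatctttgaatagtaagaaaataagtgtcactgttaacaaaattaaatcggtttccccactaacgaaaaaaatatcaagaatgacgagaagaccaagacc
WAK3: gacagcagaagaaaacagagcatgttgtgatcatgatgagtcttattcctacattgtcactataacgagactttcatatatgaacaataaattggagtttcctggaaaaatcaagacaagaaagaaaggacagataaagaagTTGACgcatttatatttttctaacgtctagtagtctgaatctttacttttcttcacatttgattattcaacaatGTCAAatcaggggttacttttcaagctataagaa
The core was found at 0 places before *WAK1*, 1 place before *WAK2* (from base -154) and 2 places before *WAK3* (from bases -108 and -34, the second on the minus strand). At least 1 match stood in 44.9% of the 27443 upstream regions of protein-coding genes of this length, and at least 2 in 14.1%. The TGACG core of TGA factors was found once before *WAK2*, once before *WAK3* (overlapping the W-box match from base -108) and once before *FERONIA*, against 18.6% of all upstream regions. Before the other members, TTGAC was found once each for *WAK4*, *WAK5* and *FERONIA* and not for *THESEUS1*, *HERCULES1* or *MIK2*. The regions before *WAK1* and *WAK2* were 83.9% identical over 223 aligned bases and shared an unbroken run of 30 bases, ctgttaagaaaaagagtaaatttgccttgt, which starts at base -220 before *WAK1* and at base -219 before *WAK2*. The other *WAK* pairs were 41.4% to 54.0% identical there, with shared runs of 8 to 11 bases. A match of letters is a description of these windows in TAIR10.1 only. The L*er* sequence of these windows and of the coding regions was not examined.

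Counts on genes were 15244500, 10360028 and 12442911 in the *rse1-1* libraries and 9960144, 10217170 and 11626752 in the WT libraries. Levels are given as CPM, and as CPM per kb of annotated exon where genes are compared with each other. CPM are the counts of a gene relative to all counts on the genes that passed the filter on low counts, after TMM scaling. *RSE1* itself averaged 20.4 ± 1.31 CPM in *rse1-1* and 56.3 ± 1.71 CPM in WT (SD, n = 3 each), lower in the libraries labelled mutant (log2 fold change -1.47, edgeR adjusted p = 5.33e-10). Photosynthesis genes marked the tissue as leaf: 5 of 6 markers were at 55.1 to 2458 CPM in *rse1-1* and at 70.4 to 4024 CPM in WT. All 5 were lower in *rse1-1* (edgeR adjusted p under 0.05), as were 38.3% of all tested genes. The libraries of *LHCB2.1* overlapped between the genotypes. *CAB1* was at 0 in every library, a value that carries the position limit given below. The root gene *PYK10* had 28, 18 and 21 counts in *rse1-1* and 2, 0 and 10 in WT, and 7 of 8 floral, pollen and seed markers had at most 4 counts in any library. The remaining marker, the seed gene *CRA1*, had 148, 88 and 123 counts in *rse1-1* and 120, 145 and 163 in WT. The source of its counts was not tested. These are bulk leaves, in which fewer cells of a type and less RNA per cell cannot be told apart.

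The position of a gene limits some values. The study aligned its reads to a L*er*-0 sequence that was made from the Col-0 reference, and ribosomal protein genes, which every cell uses, had under 10 counts on average in 10 of 78 cases in the first 5 Mb of the chromosomes and in 123 of 264 cases beyond. Within 2 Mb of a member this was 2 of 14 around the *WAK* cluster and 0 of 5 around *MIK2*, but 11 of 16 around *FERONIA*, 6 of 10 around *HERCULES1* and 6 of 10 around *THESEUS1*. All 9 members lie past the first 5 Mb. Counts under the last 3 genes may therefore be incomplete or include reads of nearby sequence, which was not tested. Of the 71 genes in the related lists below, 7 lie in the first 5 Mb, so the others may carry the same limit. The floral, pollen and seed markers named above also lie past the first 5 Mb, as do the leaf markers *CAB1*, *RBCS1A* and *RCA*. Their counts may be incomplete too, so a count near 0 does not show that such a gene was silent or a tissue absent. The surroundings of the list genes and markers were not examined in this way.

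Of the 7 measured receptor kinases, *WAK1*, *WAK2*, *WAK3*, *FERONIA* and *MIK2* were higher in *rse1-1* than in WT, *HERCULES1* was lower, and *WAK4* did not pass the test. The increases ran from 1.52-fold for *FERONIA* to 195-fold for *WAK3*. Changes were tested by edgeR (quasi-likelihood F-test), p-values were adjusted by Benjamini-Hochberg across 16294 genes, and a gene was called at an adjusted p-value under 0.05. Errors of log2 fold changes are SE throughout. The difference between the genotypes was wide over the transcriptome, so these counts have a high background: 77% of all tested genes were called, 38.8% as higher and 38.3% as lower in *rse1-1*. With upper quartile scaling the split was 5112 higher and 7633 lower, against 6314 and 6234 here. DESeq2, the tool of the paper, gave 6405 higher and 5617 lower at the same threshold. The paper reported far fewer changed genes, most of them higher, and the reason for this gap was not tested. Among the members 71.4% were called higher and 14.3% lower. Of the measured members, 1 (*WAK3*) had under 10 counts in every WT library and was tested through the mutant libraries alone. The same held for WT counts of 617 of the 16294 tested genes. The genotypes did not overlap in CPM for 6 of the 7 measured members, against 79.5% of all tested genes. The median log2 fold change of the measured members was 0.89, and that of all tested genes was -0.0086. With 7 genes, these shares describe the members and do not set them apart from the rest.

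**Figure D1:**
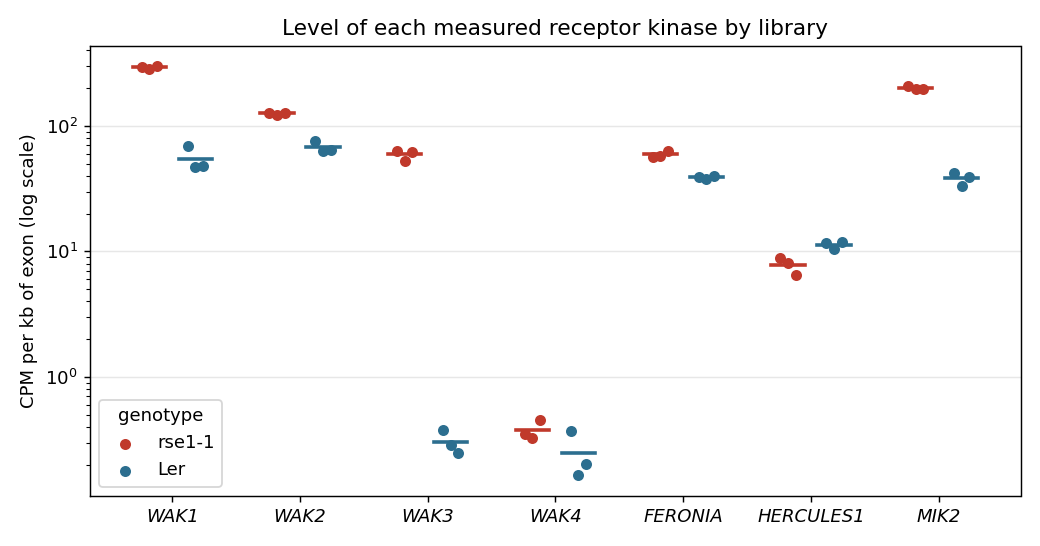
Level of the 7 measured receptor kinases in each library, in CPM per kb of exon on a log axis, with *rse1-1* on the left of each pair and L*er* on the right (points, libraries; lines, means of 3). *WAK3* stands at 59.5 CPM per kb in *rse1-1* and at 0.304 in L*er*, *WAK4* overlaps between the genotypes, and *HERCULES1* is lower in *rse1-1*.

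*WAK3* had the largest change of the members. It had 2344, 1327 and 1894 counts in *rse1-1*, against 9, 7 and 7 counts in WT. The gene was thus close to undetected in every WT library and among the well expressed genes in every mutant library, with a level per kb at the 86.5th percentile of tested genes in *rse1-1* and the 3.38th in WT. It averaged 144 ± 13.4 CPM in *rse1-1* and 0.735 ± 0.160 CPM in WT (SD, n = 3 each), a log2 fold change of 7.61 ± 0.151 (SE) and a fold of 195 with a 95% interval of 156 to 244 (edgeR adjusted p = 1.37e-14). By fitted log2 fold change it ranked 187th of the 16294 tested genes. With under 10 counts in every WT library, *WAK3* passed the filter on low counts through the mutant libraries alone. The size of its fold rests on those few WT counts.

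*WAK1*, the *WAK* gene with the best known link to salicylic acid, was the most abundant member per kb in *rse1-1*. It had 820, 787 and 827 CPM in *rse1-1*, against 192, 131 and 133 CPM in WT. The mutant libraries lay close together, while the first WT library was above the other WT libraries and still far below every mutant library. The fold was 5.34 with a 95% interval of 4.45 to 6.40 (log2 fold change 2.42 ± 0.122, edgeR adjusted p = 1.55e-10).

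*WAK2*, a pectin-binding kinase known for its part in cell expansion, rose by a smaller fold. It had 456, 441 and 459 CPM in *rse1-1*, against 274, 227 and 230 CPM in WT. The libraries of the genotypes did not overlap, and the fold was 1.86 with a 95% interval of 1.65 to 2.09 (log2 fold change 0.89 ± 0.081, edgeR adjusted p = 1.06e-07). Per kb, *WAK2* was at 126 ± 2.66 and *WAK1* at 293 ± 7.79 CPM per kb in *rse1-1*, against 68.0 ± 7.38 for *WAK2* and 54.9 ± 12.6 for *WAK1* in WT (SD, n = 3 each).

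The 2 remaining *WAK* genes were at or near the detection limit. *WAK4* had 16, 10 and 17 counts in *rse1-1*, against 11, 5 and 7 counts in WT. Its libraries overlapped in CPM, and its log2 fold change of 0.62 had a 95% interval from -0.15 to 1.39 (edgeR adjusted p = 0.128), so that neither no change nor a rise like that of *WAK2* lies outside it. Without the first WT library the value was 1.01 (adjusted p = 0.0363). *WAK5* had 0 counts in all 6 libraries, which allows up to 3 counts in each, or 0.197 to 0.301 CPM (here relative to all counts on genes, without TMM scaling). These limits cover counting error only, since the reads carry no molecular identifiers.

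The unequal change showed within single libraries, where no scaling enters. In all, 4 ratios between members were compared. The ratio of *WAK1* to *WAK2* counts was 1.80, 1.78 and 1.80 in *rse1-1*, against 0.701, 0.576 and 0.580 in WT. The ratio of *WAK3* to *WAK1* counts was 0.186, 0.163 and 0.183 in *rse1-1*, against 0.00475, 0.00528 and 0.00452 in WT. Neither ratio overlapped between the genotypes, and a two-sided exact permutation test gave p = 0.1 for each (0.133 adjusted over the 4 ratios), the smallest value that 3 against 3 libraries allow. *WAK1* made up 57.4% to 58.0% of all *WAK* counts in *rse1-1* and 36.4% to 41.0% in WT, *WAK2* 31.9% to 32.5% in *rse1-1* and 58.5% to 63.2% in WT, and *WAK3* 9.47% to 10.7% in *rse1-1* and 0.165% to 0.195% in WT.

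**Figure D2:**
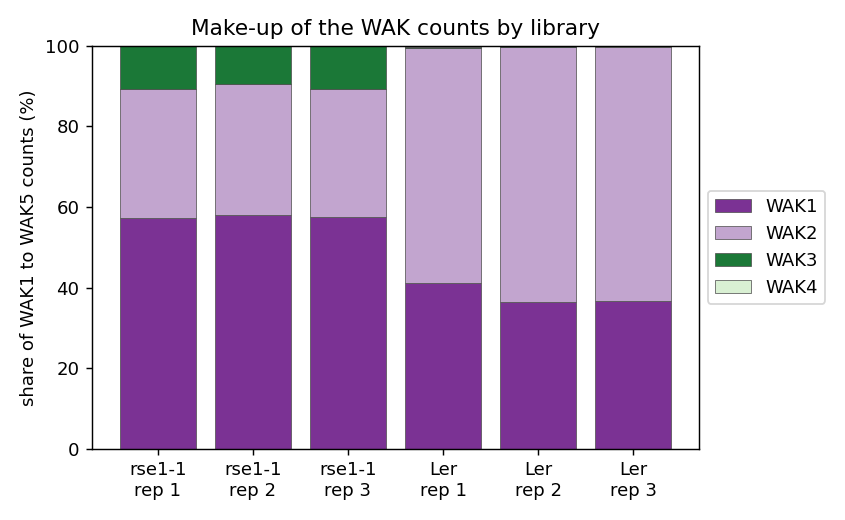
Share of each *WAK* gene in the summed counts of the 5 *WAK* genes, in percent, for each library (*rse1-1* left, L*er* right, 1 bar a library). *WAK2* is the main part of the bar in every L*er* library and *WAK1* in every *rse1-1* library, where *WAK3* also takes 9.47% to 10.7%.

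Similar sequence could move reads between the *WAK* genes. Of the stretches of 75 bases (the read length) in the exons of *WAK3*, 276 of 2200 (12.5%) occurred unchanged elsewhere in the TAIR10.1 genome, 223 of them in AT1G21245, 53 in *WAK1* and 10 in *WAK2*, with some at more than a single place. For *WAK1* it was 104 of 2548 (4.08%), for *WAK2* 61 of 3363 (1.81%), and for each other member 0. The study counted uniquely mapped reads alone, so reads of a repeated stretch would go uncounted. Whether these stretches are also repeated in the L*er*-0 sequence it aligned to was not tested. AT1G21245, a short kinase gene that starts just after *WAK3* on the same strand, had 1212, 767 and 990 counts in *rse1-1*, against 9, 1 and 3 in WT. It moved as *WAK3* did, with a log2 fold change of 7.52 (edgeR adjusted p = 2.88e-13), and its reads and those of *WAK3* were not told apart here beyond the authors' counting. In WT, *WAK1* counts of 1327 to 1895 and *WAK2* counts of 2303 to 2702 stood beside *WAK3* counts of 7 to 9. The end of *WAK2* is overlapped on the other strand by AT1G21280, which had 18, 13 and 21 counts in *rse1-1* and 9, 10 and 21 in WT.

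**Figure D3:**
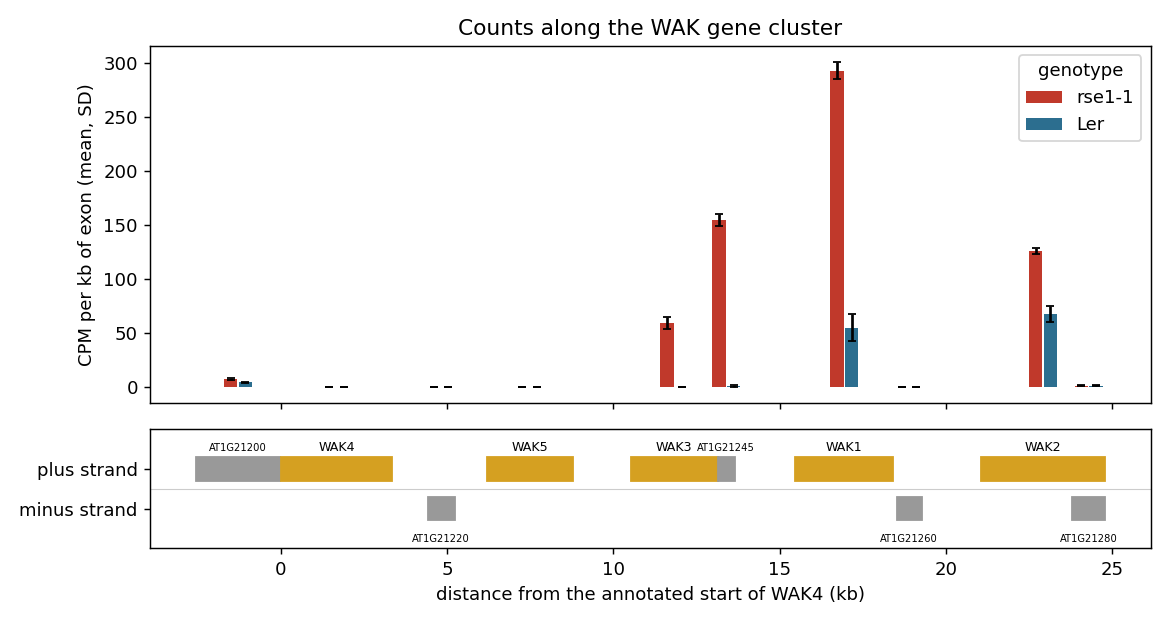
Mean CPM per kb of exon (bars, with SD over 3 libraries; *rse1-1* left, L*er* right) of the genes along the *WAK* cluster, above their position in kb from the annotated start of *WAK4* (gold, *WAK* genes; grey, other annotated genes, with a miRNA gene just before *WAK4* left out). High levels are seen for *WAK1* and *WAK2* in both genotypes, while *WAK3* and AT1G21245 stand at 59.5 and 154 CPM per kb in *rse1-1*, against 0.304 and 0.845 in L*er*.

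In the CrRLK1L family, *FERONIA*, a receptor of RALF peptides with roles in growth, fertilisation and immunity, had 182, 186 and 200 CPM in *rse1-1*, against 125, 121 and 127 CPM in WT. The groups did not overlap, and the spread within each was small beside the difference. The fold was 1.52 (log2 fold change 0.60 ± 0.0682, 95% interval 0.46 to 0.75, edgeR adjusted p = 1.15e-06). By these counts *FERONIA* was above *HERCULES1* per kb in both genotypes, at 59.3 ± 3.08 in *rse1-1* and 39.0 ± 0.873 CPM per kb in WT. As given above, counts of both genes may be incomplete, so their order by level is not settled.

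*HERCULES1*, known to promote cell elongation with brassinosteroid signalling, was the member that fell. It had 28.8, 26.4 and 21.1 CPM in *rse1-1*, against 38.0, 34.4 and 38.7 CPM in WT. Each mutant library was below each WT library. The log2 fold change was -0.54 ± 0.109 (95% interval -0.77 to -0.30, edgeR adjusted p = 3.80e-04). The ratio of *FERONIA* to *HERCULES1* counts was 6.31, 7.02 and 9.48 in *rse1-1*, against 3.28, 3.53 and 3.28 in WT, without overlap (two-sided exact permutation p = 0.1, the smallest possible). The position limit given above holds for both genes of this ratio. The end of *HERCULES1* overlaps AT3G46300 on the other strand, which had 0 counts in every library.

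*THESEUS1*, which restrains growth when cellulose is deficient, had 0, 0 and 3 counts in *rse1-1*, against 1, 0 and 3 in WT, and was not measured. As given above, most of the ribosomal protein genes around it were also under 10 counts, so that a low level of *THESEUS1* in these leaves cannot be told apart from counts lost at that position. Next to *FERONIA*, AT3G51540 and AT3G51530 had 0 counts in every library, while the disease resistance gene AT3G51560 had 1046 to 1800 counts in *rse1-1* and 839 to 1087 in WT.

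*MIK2* changed by a fold close to that of *WAK1*. It had 867, 820 and 822 CPM in *rse1-1*, against 176, 138 and 165 CPM in WT. Every mutant library was far above every WT library, with a fold of 5.25 (95% interval 4.58 to 6.01, log2 fold change 2.39 ± 0.0914, edgeR adjusted p = 7.03e-12). The ratio of *MIK2* to *WAK1* counts was 1.06, 1.04 and 0.995 in *rse1-1*, against 0.915, 1.05 and 1.23 in WT. It overlapped between the genotypes, with a log2 difference of -0.04 (two-sided exact permutation p = 0.8), which with 3 libraries each does not show that the ratio was equal. Per kb, *MIK2* was at 201 ± 6.33 in *rse1-1*, between *WAK1* and *WAK2*, and at 38.3 ± 4.73 in WT, not apart from *FERONIA* there beyond the spread.

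In order of level per kb, *rse1-1* leaves had *WAK1*, *MIK2*, *WAK2*, *WAK3*, *FERONIA*, *HERCULES1* and *WAK4*, and the means of *WAK3* (59.5 ± 5.55) and *FERONIA* (59.3 ± 3.08) did not differ beyond their spread. WT leaves had *WAK2*, *WAK1*, *FERONIA*, *MIK2*, *HERCULES1*, *WAK3* and *WAK4*. In WT, the means of the neighbours *WAK2* and *WAK1*, *FERONIA* and *MIK2*, and *WAK3* (0.304 ± 0.0660) and *WAK4* (0.247 ± 0.111) lay within the spread over libraries. Within single WT libraries, *WAK2* was above *WAK1* per kb in 3 of 3 (76.5 against 69.4, 63.3 against 47.2 and 64.1 against 48.2), while *FERONIA* was above *MIK2* in 2 of 3. *WAK3* was above *WAK4* per kb in 3 of 3, but on 9, 7 and 7 counts against 11, 5 and 7. These counts are too few to set an order. *HERCULES1* stood at 7.81 ± 1.21 in *rse1-1* and 11.4 ± 0.715 CPM per kb in WT, apart from its neighbours in both orders. The places of *FERONIA* and *HERCULES1* carry the position limit given above, since their counts may be incomplete.

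**Figure D4:**
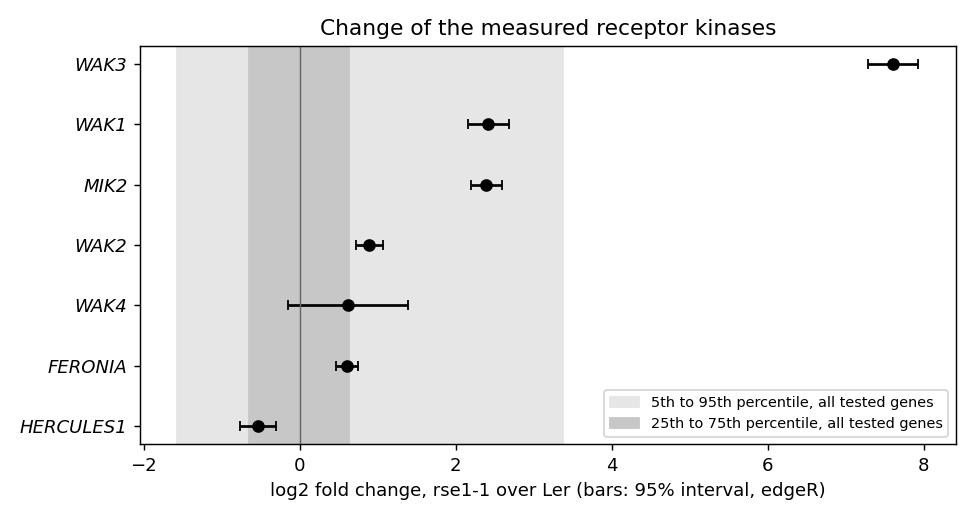
Fitted log2 fold change of the 7 measured receptor kinases, *rse1-1* over L*er*, with 95% intervals from edgeR, over the range of all tested genes (light grey, 5th to 95th percentile, -1.57 to 3.37; dark grey, 25th to 75th percentile, -0.65 to 0.63). *WAK3* lies beyond the light band at 7.61, *WAK1* and *MIK2* lie in its upper part, and the fitted values of *FERONIA*, *HERCULES1* and *WAK4* lie inside the dark band.

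Genes related to the members were counted in 5 lists, each read against the 38.8% higher and 38.3% lower over all tested genes. The lists were chosen with earlier results of these data known, so their shares and medians are descriptions only. Most list genes lie past the first 5 Mb, so the position limit given above may hold for them too. Of 14 other CrRLK1L kinases, 10 were tested, of which 7 were higher and 2 were lower in *rse1-1*, with a median log2 fold change of 0.82. *MDS4*, 1 of 4 tandem CrRLK1L genes known from metal ion responses, averaged 43.1 CPM in *rse1-1* and 9.59 CPM in WT (log2 fold change 2.18, edgeR adjusted p = 5.75e-10). *CVY1*, known from cell shape, and *MDS2* rose by 1.47 and 0.87 on the log2 scale, while *HERK2* was at 10.6 CPM in *rse1-1* and 24.7 CPM in WT (-1.24). *ANX1*, a kinase of the pollen tube, had 70, 35 and 36 counts in *rse1-1*, against 0, 1 and 0 in WT. It is among the genes called higher and passed the filter on low counts through the mutant libraries alone. The pollen markers were near 0 in both genotypes: *VGD1* had 0, 0 and 0 counts in *rse1-1*, against 0, 4 and 1 in WT, and *PPME1* had 2, 3 and 1 in *rse1-1*, against 0, 2 and 1 in WT. Both markers lie past the first 5 Mb, so their counts may be incomplete. The part of pollen in the *ANX1* counts was not tested. The tested gene that was not called was *BUPS1*, with 25.9, 31.3 and 30.4 CPM in *rse1-1*, against 32.3, 35.3 and 32.3 CPM in WT (log2 fold change -0.20, edgeR adjusted p = 0.0694). Its libraries did not overlap, though the difference missed the threshold.

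Of 20 WAK-like kinases, 14 were tested, of which 8 were higher and 4 lower in *rse1-1* (median log2 fold change 0.78). The lower ones were 1 without the first *rse1-1* library and 2 without the second or the third WT library, or with DESeq2. *WAKL14* had a log2 fold change of 2.42, like that of *WAK1*, with 168 CPM in *rse1-1* and 31.5 CPM in WT (edgeR adjusted p = 4.27e-12). *WAKL8*, *WAKL10* and *WAKL6* rose by 1.79, 1.09 and 1.48 on the log2 scale. *WAKL2* had 145, 74 and 97 counts in *rse1-1*, against 3, 9 and 9 in WT, and so passed the filter on low counts through the mutant libraries alone, as *WAK3* did. The 4 lower genes differed little, with log2 fold changes from -0.61 to -0.20.

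Of 15 genes for RALF peptides, their LLG and LRE coreceptors, LRX extensins and the WAK ligand *GRP3*, 8 were tested, of which 3 were higher and 5 lower in *rse1-1* (median log2 fold change -0.54). The higher ones were 1 without the first *rse1-1* library or the second WT library. *LRX5* and *LRX4*, wall proteins that bind RALF peptides and act with FERONIA, were at 14.5 and 54.5 CPM in *rse1-1* and at 53.9 and 109 CPM in WT (log2 fold changes -1.90 and -1.01, edgeR adjusted p = 1.57e-10 and 3.74e-08). *RALF33* and *RALF22* fell by 0.97 and 0.60 on the log2 scale. *GRP3*, a secreted glycine-rich protein that binds WAK1, rose by 0.73 to 477 CPM in *rse1-1*, against 288 CPM in WT. Of the 5 *RALF* genes listed, 3 were tested.

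Of 14 kinase partners and downstream genes, 12 were tested, of which 9 were higher and 2 lower in *rse1-1* (median log2 fold change 0.81). *BKK1* and *BAK1*, coreceptors of leucine-rich repeat kinases, rose by 2.60 and 1.21 on the log2 scale. *RIPK*, a cytoplasmic kinase that FERONIA phosphorylates, was at 222 CPM in *rse1-1* and 40.3 CPM in WT (log2 fold change 2.46, edgeR adjusted p = 9.65e-13). The NADPH oxidases *RBOHD* and *RBOHF*, which make apoplastic reactive oxygen, rose by 2.38 and 1.91.

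Of 8 other wall sensors 6 were tested, of which 1 was higher and 4 were lower in *rse1-1* (median log2 fold change -0.57). Without the third *rse1-1* library, 2 were higher. The higher gene was *MIK2-LIKE* (AT1G35710), named for its likeness to *MIK2*, at 268 CPM in *rse1-1* and 33.5 CPM in WT (log2 fold change 3.00, edgeR adjusted p = 2.51e-12). The mechanosensitive channel gene *MCA1* fell by 1.09 on the log2 scale, *FEI1* and *FEI2*, kinases needed for cellulose synthesis in roots, by 0.83 and 0.85, and *MCA2* by 0.31. No difference between the lists was tested.

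**Figure D5:**
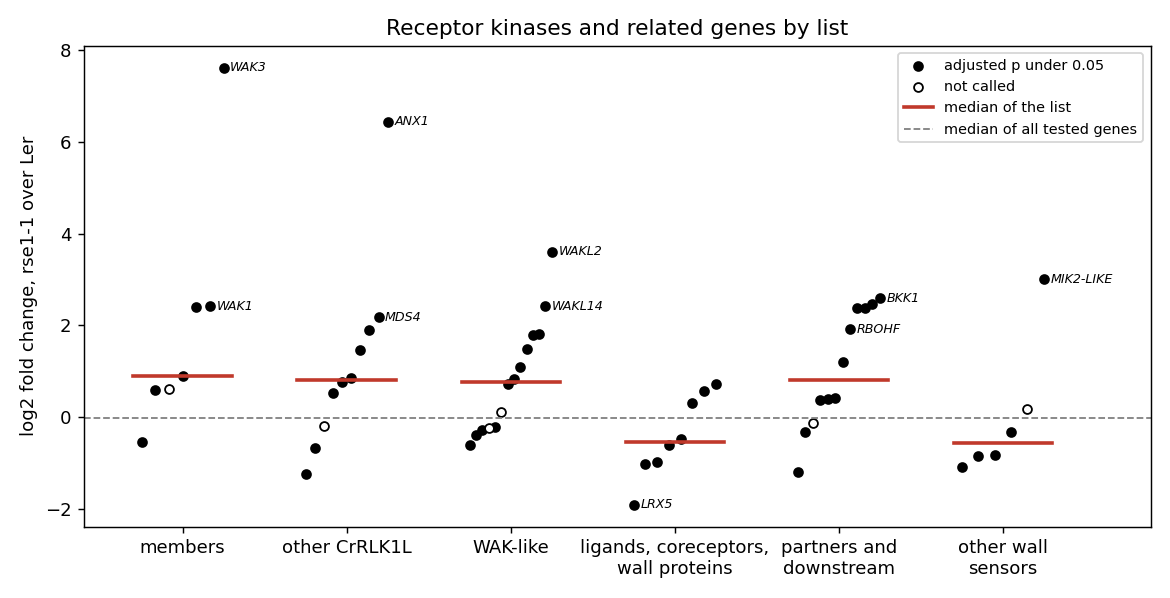
Fitted log2 fold change, *rse1-1* over L*er*, of every tested gene of the members and of the 5 related lists (filled, edgeR adjusted p-value under 0.05; open, not called; red line, median of the list; dashed line, median of all tested genes). The medians lie at 0.89 for the members and at 0.82, 0.78 and 0.81 for the other CrRLK1L kinases, WAK-like kinases and partners, and at -0.54 and -0.57 for the ligands and wall proteins and the other wall sensors. *ANX1* is drawn at its fitted value, which is no bound because its L*er* libraries held 0 or 1 count. Members and lists were chosen with earlier results of these data known.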

How the data were processed

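Poly(A) RNA of leaves was read as single reads of 75 bases from a strand-specific kit, with 3 libraries of *rse1-1* and 3 of L*er*. The values deposited by the authors are whole counts per gene, not normalized: reads were trimmed with Trimmomatic 0.32.3, aligned by TopHat2 2.0.9 to a Col-0 genome changed to L*er*-0, cleared of duplicates with Picard 1.119 and counted with HTSeq 0.6.1 (versions from the submitters' processing notes). The strand setting and annotation version of the counting are not given in the sources used here. Entries that name no gene, 47.0% to 48.7% of a library, were left out. Locus names and positions came from RefSeq's TAIR10.1 (32835 of 33602 loci matched).

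Genotypes were compared in R 4.3.3 by edgeR 4.0.16 (scaling by TMM, filterByExpr with a minimum count of 10, genotype alone in the model, quasi-likelihood test, Benjamini-Hochberg adjustment over 16294 genes). A standard error is the log2 fold change divided by the square root of F. The code was tested on simulated data. Coding and upstream sequences were aligned with MAFFT 7.526. Alternatives were DESeq2 1.42.0, voom of limma 3.58.1, other scalings and filters, a block for the replicate number, leaving out single libraries and a threshold of 0.01. The study calls the replicates biological, the labels do not say how they were raised, and p-values measure the spread between these libraries. Members and lists were chosen with earlier results of these data known. Members are all named, and of each list up to 5 genes with the smallest adjusted p-values. *BUPS1*, *VGD1*, *PPME1* and the ranges of other genes were added after their values were seen.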

Additional observations from a re-analysis of the deposited data

How the results depend on the processing

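The calls of 6 members kept their direction and their side of the threshold under every alternative that could be run. Log2 fold changes ran from 2.22 to 2.62 for *WAK1*, 0.70 to 0.98 for *WAK2*, 7.42 to 7.78 for *WAK3*, 0.41 to 0.65 for *FERONIA*, -0.73 to -0.41 for *HERCULES1* and 2.20 to 2.47 for *MIK2*, with adjusted p-values of at most 0.00222 in edgeR, DESeq2 or limma. *WAK3* and *WAK4* gave no value where 10 counts were asked of every library. *WAK4* ran from 0.41 to 1.01 and passed the threshold only without the first L*er* library (1.01, edgeR adjusted p = 0.0363). *WAK5* has no counts to test, and *THESEUS1* was not called without the filter (edgeR adjusted p = 0.677) or by DESeq2 (0.808). Replicate numbers did not pair the libraries (correlations of 0.039, 0.072 and -0.060 between same-numbered ones). With the replicate block 6298 genes were higher and 6248 lower, and the count of other wall sensors called higher was 2 in place of 1. That count was also 2 with RLE scaling, library size alone, no filter and 10 counts in every library. WAK-like kinases called lower were 2 in place of 4 with DESeq2, RLE scaling, 10 counts in every library and a threshold of 0.01, and ligands and wall proteins called higher were 1 in place of 3 with upper quartile scaling and a threshold of 0.01. Upper quartile scaling moved the median of all genes to -0.20 and the calls to 5112 higher and 7633 lower (40.1% higher, against 50.3%). With single libraries left out, all genes called higher were 6037 to 6336 and called lower 5857 to 6210, WAK-like kinases lower 1 to 3, ligands and wall proteins higher 1 to 3, and other wall sensors higher 1 to 2. The cause of these shifts was not tested.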

Other observations

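For the measured members with the largest and the smallest absolute change, the genes with the most similar log2 CPM over the 6 libraries were listed as a description. For *WAK3* these were *APK2A* (AT1G14370), *PIS1* (AT1G68000) and AT5G49770, and 2039 genes in all had a likeness (Pearson's coefficient) of at least 0.99 to it. For *HERCULES1* they were *LCB2* (AT5G23670), AT4G09920 and AT1G34020, and 9 genes reached 0.99. With 3 libraries of each of 2 genotypes that lie far apart, this measure mostly restates the difference between the genotypes.

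Next to *HERCULES1*, the kinase-like gene AT3G46280 had 305, 136 and 393 counts in *rse1-1*, against 1, 0 and 1 in L*er*. Next to *MIK2*, *ARGAH2* (AT4G08870), an arginase gene, had 5019, 4494 and 3981 counts in *rse1-1*, against 1267, 1210 and 1405 in L*er*, while *PUM11* (AT4G08840) had 0 in every library. These genes flank members on the same chromosome, and no relation to them was tested.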
